A study of Mus musculus with 3 samples.

Results

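Matrix metalloproteases are zinc-dependent enzymes that cut the proteins of the extracellular matrix, and the tissue inhibitors of metalloproteases (Timps) block them by binding in the active site. Most are secreted as inactive proenzymes, and Mmp14, which sits in the cell membrane, activates pro-Mmp2 in a complex that also needs Timp2. In tumors these enzymes are known from fibroblasts, macrophages and neutrophils more than from the tumor cells themselves. Here 7 proteases (Mmp2, Mmp3, Mmp8, Mmp9, Mmp12, Mmp14 and Mmp19) and 3 inhibitors (Timp1, Timp2 and Timp3) were examined, chosen by name, which makes 10 of the 31053 genes in the count tables. The question was which cells of a mouse neuroblastoma carry the mRNA of proteases and which carry that of inhibitors.

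The data were single-cell RNA counts of 3 whole tumors from TH-MYCN mice, 1 tumor per mouse, taken at 62, 79 and 63 days of age (tumors 1, 2 and 3). All mice carried the human MYCN transgene in the heterozygous state under the tyrosine hydroxylase promoter, which is active in sympathetic cells, and the labels name no treatment. There was thus a single group, and comparisons were made between the cell classes of these tumors, in the main tests without pairing by tumor. The 5650 cells kept by the authors (1914, 1221 and 2515) had a median of 4282.5, 1594 and 1816 unique molecular identifiers (UMIs, each standing for 1 captured mRNA molecule) in tumors 1, 2 and 3.

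Levels are given as CPM (the UMIs of a gene divided by all UMIs of the class in that tumor, times 1000000), and describe captured 3′ ends without scaling to gene length. For that reason levels were compared between classes for the same gene and not between genes. Intervals and limits at a count of 0 (3 UMIs of the total) cover counting error only. Called means an adjusted p under 0.05 in edgeR's quasi-likelihood test on counts summed per class and tumor. In the comparisons between the classes and subsets below, a direction in which edgeR called 0 members also held 0 at an unadjusted p under 0.05, except Timp2 in plasmacytoid dendritic-like cells (higher), and DESeq2 called 0 there except Timp3, lower in macrophage-like cells.

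Cells were grouped by clustering without the members, and clusters were named from marker genes. This gave 3229 tumor-like, 1013 macrophage-like, 313 neutrophil-like, 264 T cell-like, 244 B cell-like, 118 plasmacytoid dendritic-like, 102 endothelial-like, 84 CAF-like (cancer-associated fibroblasts), 48 NK cell-like, 27 mesothelial-like and 27 erythroid-like cells. A further cluster of 181 cells, led by plasma cell genes but also holding tumor markers, was left unnamed. All 13 neutrophil markers, all 13 endothelial markers, all 12 CAF markers and all 10 mesothelial markers were enriched in the cluster of that name. The 12 tumor markers were also found outside the tumor-like cells (3054 to 3487 CPM), at 45.6, 888 and 1212 CPM in the macrophage-like cells of tumors 1, 2 and 3, and their part in the results was not tested.

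Of the members, Mmp3, Mmp8 and Mmp12 lie close together in a run of 10 Mmp genes on chromosome 9 (7272514 to 7699585, GRCm38, 427 kb). Mmp12 (9:7344381-7369499) lies 76 kb from Mmp3 (9:7445822-7455975), which lies 102 kb from Mmp8 (9:7558456-7568485), and all 3 are on the forward strand. Over all tumors together, each had most of its UMIs in a different class, as described below. Macrophage-like cells, which held most of Mmp12, also held 233 of the 1025 UMIs of Mmp8. The promoters of these neighbors are therefore shown, with that of the inhibitor Timp1 (gene at X:20870166-20874735) for contrast. Each stretch covers 250 bases before and 50 bases after a transcript start of RefSeq on GRCm38.p6, on the forward strand, at chr9:7445572-7445871 (Mmp3), chr9:7558179-7558478 (Mmp8), chr9:7347124-7347423 (Mmp12) and chrX:20869916-20870215 (Timp1). Capitals mark matches on either strand to the core of an AP-1 site, TGANTCA, to a TATA box, TATAAA, or to a GC box, GGGCGG.
Mmp3: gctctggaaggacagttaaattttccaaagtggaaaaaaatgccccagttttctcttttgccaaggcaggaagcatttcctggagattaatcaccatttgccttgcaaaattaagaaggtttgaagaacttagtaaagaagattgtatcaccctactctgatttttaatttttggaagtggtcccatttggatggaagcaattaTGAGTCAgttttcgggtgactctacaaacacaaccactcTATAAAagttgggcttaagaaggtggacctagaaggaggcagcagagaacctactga
Mmp8: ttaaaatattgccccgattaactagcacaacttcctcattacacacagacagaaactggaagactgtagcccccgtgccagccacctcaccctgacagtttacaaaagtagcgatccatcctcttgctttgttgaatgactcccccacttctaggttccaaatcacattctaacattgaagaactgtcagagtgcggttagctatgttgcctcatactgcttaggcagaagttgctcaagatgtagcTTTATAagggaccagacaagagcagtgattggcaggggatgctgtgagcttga
Mmp12: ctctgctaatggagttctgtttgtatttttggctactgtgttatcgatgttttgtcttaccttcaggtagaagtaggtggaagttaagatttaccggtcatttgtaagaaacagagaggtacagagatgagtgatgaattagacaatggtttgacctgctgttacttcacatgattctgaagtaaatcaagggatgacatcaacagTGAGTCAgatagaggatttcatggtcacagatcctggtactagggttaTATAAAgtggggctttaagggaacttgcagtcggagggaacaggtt
Timp1: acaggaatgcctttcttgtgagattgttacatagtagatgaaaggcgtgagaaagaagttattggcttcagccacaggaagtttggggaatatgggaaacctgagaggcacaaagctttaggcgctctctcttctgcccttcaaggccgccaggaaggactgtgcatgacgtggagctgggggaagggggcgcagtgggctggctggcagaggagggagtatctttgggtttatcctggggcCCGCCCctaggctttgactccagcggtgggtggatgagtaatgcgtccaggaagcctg

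The Mmp3 stretch and this Mmp12 stretch each held 1 match to an AP-1 core and 1 to a TATA box. The Mmp8 stretch held 1 match to a TATA box and none to an AP-1 core, and the Timp1 stretch held 1 GC box only. Counted from the transcript start shown, the TATA matches began at -7 (Mmp3), -3 (Mmp8, on the reverse strand) and 4 (Mmp12, after the start). Whether they act as TATA boxes was not tested. An AP-1 core occurred in 7.81%, a TATA box in 13.6% and a GC box in 35.7% of all 32851 promoters of that length. Promoters were matched for 7 of the 10 members, and those of Mmp14, Timp2 and Timp3 held 2, 1 and 2 GC boxes and neither other motif. A second Mmp12 promoter, at chr9:7344147-7344446, held none of the 3 motifs. These are matches of letters and do not show that a factor binds there.

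The kept cells held 10477 UMIs of the members, 4546 of proteases (43.4%) and 5931 of inhibitors (56.6%). Tumor-like cells, 57.2% of the kept cells, held at most 5.52% of the UMIs of any member over all tumors together. This share rests on tumor 1, which gave most member UMIs and few tumor-like cells, and in single tumors it reached 20.9% for Timp3, 20% for Timp1, 18.3% for Timp2 and 17.3% for Mmp14. The plot of shares by class shows that each member was held mainly by 1 to 3 classes. Neutrophil-like cells held 95% of Mmp9 (72.5% to 97.6% in single tumors) and 75.9% of Mmp8 (50% to 92.5%, the low value from 10 UMIs in tumor 3). Macrophage-like cells held 96.9% of Mmp12 (82.9% to 98.3%). CAF-like cells held 95.9% of Mmp3 (94.4% to 100% in tumors 1 and 3) and 74.5% of Mmp2 (30.8% to 77.5%). In tumor 2, mesothelial-like cells held 13 of the 26 UMIs of Mmp2. The 27 mesothelial-like cells, 0.478% of all cells, held 59.7% of Timp3 (32.0% to 64.0% in single tumors) and 40.4% of Timp1 (15.6% to 88.9%).

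**Figure D1:**
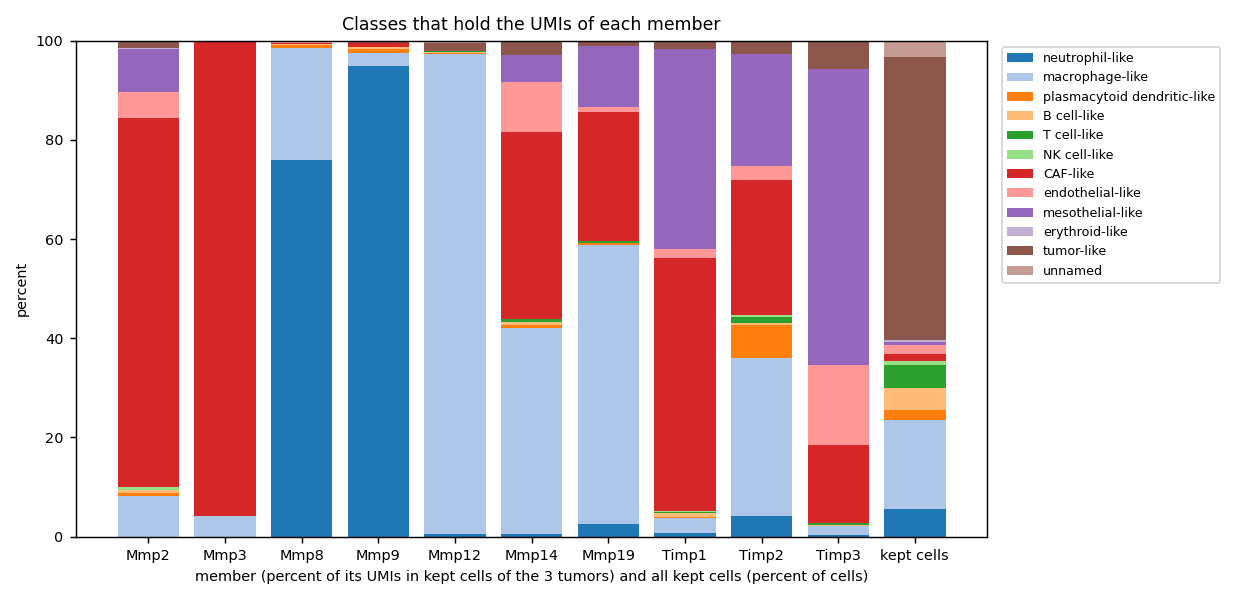
Share (percent) of the UMIs of each member that each cell class held, over the kept cells of the 3 tumors, with the share of cells in the last bar. Mmp9 and Mmp8 stand mostly in neutrophil-like cells, Mmp12 in macrophage-like cells, Mmp2 and Mmp3 in CAF-like cells, and Timp3 largely in mesothelial-like cells.

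Among the proteases, Mmp9 (gelatinase B, stored in neutrophil granules) and Mmp8 (neutrophil collagenase) marked the neutrophil-like cells. Mmp9 stood at 1102, 609 and 650 CPM in the neutrophil-like cells of tumors 1, 2 and 3 (mean 787 ± 274, SD, n = 3 tumors), from 779, 82 and 29 UMIs. In macrophage-like cells it stood at 2.08, 0 and 16.2 CPM, and the levels of these classes did not overlap. Mmp8 stood at 901, 1011 and 112 CPM in neutrophil-like cells (mean 675 ± 490, SD, n = 3), from 637, 136 and 5 UMIs. Tumor 3 was thus low for Mmp8 but not for Mmp9, with only 22 neutrophil-like cells there, and the 13 neutrophil markers summed to 154775, 141411 and 46947 CPM in the same cells. The part of the marker levels in this result was not tested.

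The difference from macrophage-like cells was a log2 of 7.49 ± 1.07 (SE) for Mmp9 and 5.28 ± 0.89 for Mmp8, with adjusted p of 0.000293 and 0.000917 in edgeR's quasi-likelihood test. In that comparison 2 members were called higher in neutrophil-like cells, against 3.04% of all genes, and 2 were called lower, Mmp12 and Mmp14, against 2.43%. Mmp9 passed the filter on low counts only through neutrophil-like sums and Mmp12 only through macrophage-like sums. The calls of Mmp9 and Mmp12 therefore add no support beyond their counts. The calls of Mmp8 and Mmp9 kept an adjusted p under 0.05 in all 14 alternatives. Those of Mmp12 (adjusted p = 0.0038) and Mmp14 (adjusted p = 0.0319) did not, since Mmp12 was lost without tumor 1 or tumor 2 and in the corrected counts, and Mmp14 without tumor 2 or tumor 3, at a clustering resolution of 2 and by DESeq2. Against the mean of all other classes, 2 of the 10 members, again Mmp8 and Mmp9, were called higher in neutrophil-like cells and none lower, with 13% of all genes called higher and 0.772% lower. When set against the summed counts of all other cells, Mmp9 stayed called (adjusted p = 0.0154), while Mmp8 did not (adjusted p = 0.108), and 0.403% of all genes were called higher and 0.0101% lower.

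Within the 313 neutrophil-like cells, 98 held UMIs of both Mmp8 and Mmp9, 125 held Mmp9 only, 19 held Mmp8 only and 71 held neither. Mmp8 was the more uneven, as 5 cells held 35.1% of its UMIs in this class, against 16.3% for Mmp9. After each cell was thinned to 500 UMIs, 29.7% of neutrophil-like cells had a UMI of Mmp9 and 18.2% had one of Mmp8 (71.2% and 37.4% unthinned, at a median of 2464 UMIs per cell). In tumor-like cells, which serve as background, the tumors together held 5 UMIs of Mmp9 and 1 of Mmp8.

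Of the inhibitors, neutrophil-like cells held only Timp2 above a few UMIs, at 154, 141 and 134 CPM. It was not called against the other classes (adjusted p = 0.126), but was called with the tumor as a block (adjusted p = 0.0268) and by DESeq2, without a filter on low counts, with classes of at least 5 or at least 20 cells and without tumor 1, each of which raised the number of members called higher from 2 to 3. At resolution 0.5 and without integration Mmp19 was called too (4 members). Timp1 and Timp3 gave 10 and 3 UMIs in this class, the latter in 2 of the tumors. Proteases accordingly made up 92.2%, 91.7% and 86.0% of member UMIs in the neutrophil-like cells of tumors 1, 2 and 3.

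Among the other genes of the pathway, neutrophil-like cells were called higher against the other classes for Adam8, a membrane protease of leukocytes (mean 422 CPM against 6.88 in the other classes), and for Lcn2, which binds Mmp9 (2708 against 19.1 CPM). The urokinase receptor Plaur was also called (732 against 70.3 CPM), with Cd44, Furin, Adam17, Slpi and Anxa2. In the list of Adam and Adamts proteases 3 of 16 tested genes were called higher, in that of activators and partners 3 of 10, and in that of plasminogen activation 2 of 6, where 13% of all genes (1436 of 11012) were called higher. These counts are small, and nothing particular to the lists is read from them. None of the 18 matrix substrate genes was called in either direction.

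Macrophage-like cells carried Mmp12 (macrophage elastase) above all. It stood at 56.3, 129 and 42.7 CPM in tumors 1, 2 and 3 (mean 76.1 ± 46.6, SD, n = 3), from 352, 54 and 29 UMIs, and in every other class with at least 10 cells it stood at 22.4 CPM or less. Neutrophil-like cells, the class with the next highest mean, held 2 UMIs of it in all. Against the mean of the other classes, 5 members were called higher in macrophage-like cells (Mmp12, Mmp14, Mmp19, Mmp8 and Timp2) and none lower, with 9.94% of all genes called higher and 0.0636% lower. Mmp12 passed the filter on low counts only through macrophage-like sums, and its calls add no support beyond its counts. Against the summed counts of all other cells only Mmp12 remained (adjusted p = 0.0303), where 0.244% of all genes were called higher and 0.0348% lower. Mmp8 then turned to a log2 of -1.18 (adjusted p = 0.654), as its level in the summed other cells was 106, 60.4 and 1.15 CPM. The count was 3 without tumor 1 (Mmp12, Mmp14 and Timp2, with Mmp19 not tested) and 2 with DESeq2 (Mmp12 and Mmp14).

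Mmp14 was even across tumors in macrophage-like cells, at 83.3, 79.0 and 79.5 CPM (mean 80.6 ± 2.37, SD, n = 3). These cells held 41.6% of its UMIs, more than CAF-like cells (37.8%), although their level was below that of CAF-like cells (526, 372 and 322 CPM) in each tumor. Mmp19, a protease of basement membranes, stood at 16.0, 14.4 and 10.3 CPM, from 113 UMIs. Timp2 stood at 119, 362 and 205 CPM and ranged over 3-fold between tumors. The share of proteases was 60.5%, 40.4% and 43.8%, and in tumors 2 and 3 the inhibitors thus gave most of the member UMIs.

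Clustering of the macrophage-like cells gave 262 Apoe+-like, 292 Ccr2+-like and 292 Pecam1+-like cells, with 167 left unnamed. The names are those of the study's macrophage clusters. The marker lists joined genes of the study's signatures, such as Apoe, C1qb and Cd63, with further genes chosen here. Cd82, Il10 and Cd274 of the study's Pecam1+ signature were not in the lists. The fit over these subsets tested 3322 genes and 3 of the members (Mmp12, Mmp14 and Timp2), since the others fell to the filter on low counts.

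In Apoe+-like cells Mmp12 stood at 244, 303 and 53.7 CPM and Timp2 at 492, 785 and 426 CPM. The protease and the inhibitor were called higher together (2 members, with 4.55% of all genes called higher, and none lower, with 4.09% of genes called lower). The log2 difference of Timp2 was 4.32 ± 0.51 (SE, adjusted p = 0.00085), and it stayed called in all 16 alternatives. Mmp12 (adjusted p = 0.0176) was not called without tumor 1, without tumor 2 or against the summed other macrophages (adjusted p = 0.0676, with 3.15% of all genes called higher and 2.41% lower). Mmp14 stood at 201, 95.3 and 73.8 CPM and was called with the tumor as a block (adjusted p = 0.034) but not otherwise (adjusted p = 0.298), which moves the count to 3.

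The Apoe+-like cells were not all alike in these genes. Mmp12 was found in 42 of 262 cells, and 5 cells held 56.4% of its UMIs, the highest with 91. Timp2 was found in 154 cells, with 21.0% of UMIs in the top 5. Of the 42 cells with Mmp12, 32 also held Timp2. Of these cells, 149 formed a subcluster at a median of 1344 UMIs whose leading genes included the tumor gene Phox2a, and the other 113 cells had a median of 12508 UMIs. Without that subcluster both Mmp12 and Timp2 stayed called higher.

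In Pecam1+-like cells no UMI of Mmp12 was found, which allows up to 1.85, 44.2 and 17.9 CPM in tumors 1, 2 and 3. Timp2 stood at 16.0, 29.5 and 11.9 CPM, below every value of the Apoe+-like cells. Both were called lower than in the other subsets (2 members, with 2.56% of all genes called lower, and none higher, with 3.88% called higher), at adjusted p of 0.0418 and 0.0162. Both were also called against the summed other macrophages (1.55% of all genes lower and 0.442% higher). The count was 1, 0 and 1 without tumors 1, 2 and 3. Mmp14 was the remaining protease here, at 68.5, 0 and 107 CPM from 111, 0 and 18 UMIs, and in tumor 2 its count of 0 among 20 cells allows up to 44.2 CPM.

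In Ccr2+-like cells edgeR called 0 of the 3 members that were tested, at adjusted p of 0.948 to 0.999, with 0.0602% of all genes called higher and 0% lower. DESeq2 also called 0 of them, and 0 had an unadjusted p under 0.05. Mmp8, which did not pass the filter, stood at 72.0, 137 and 33.7 CPM in Ccr2+-like cells, from 200, 8 and 4 UMIs. It stood at 3.09, 0 and 0 CPM in Pecam1+-like and 6.09, 0 and 0 CPM in Apoe+-like cells, below each measured Ccr2+-like value. The count of 0 among the 20 Pecam1+-like cells of tumor 2 allows a level above the 33.7 CPM of tumor 3, so the levels may overlap. It was called higher in the fit without a filter on low counts, where 46 of 15952 genes were, at the clustering resolutions of 0.5 (17 of 4785 genes) and 2 (28 of 6460 genes) and without integration (22 of 9239 genes). It was also called with the lists kept in the clustering (6 of 3564 genes), where Mmp8 itself could help to form the clusters. Against the summed other macrophages, where it passed the filter, its log2 difference was 4.62 (adjusted p = 0.0769), and 0% of all genes were called. At the levels given above, Mmp8 could pass a filter only through Ccr2+-like cells. Its calls in these settings therefore add no support beyond its counts. The 13 neutrophil markers summed to 326, 257 and 185 CPM in Ccr2+-like cells and to 289, 162 and 113 CPM in Pecam1+-like cells. Mmp9 gave a single UMI in the 292 Ccr2+-like cells, against 212 UMIs of Mmp8, whereas neutrophil-like cells held 890 UMIs of Mmp9 and 778 of Mmp8.

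Mmp19 stood at 33.8, 0 and 8.43 CPM in Ccr2+-like cells, from 94, 0 and 1 UMIs, and 18 of the 79 cells with Mmp8 also held it. In the 226 Pecam1+-like cells of tumor 1 no UMI of Mmp19 was found, which allows up to 1.85 CPM. Mmp12 stood at 11.2, 0 and 110 CPM in Ccr2+-like cells, so that tumor 3 alone reached the Apoe+-like range, on 13 UMIs. Proteases made up 85.4%, 70% and 73.0% of member UMIs in Ccr2+-like cells, against 48.6%, 35.8% and 31.2% in Apoe+-like cells, and these ranges did not overlap. A high share was not particular to Ccr2+-like cells, since Pecam1+-like cells stood at 76.1%, 0% and 90%, the 0% from 6 member UMIs.

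**Figure D2:**
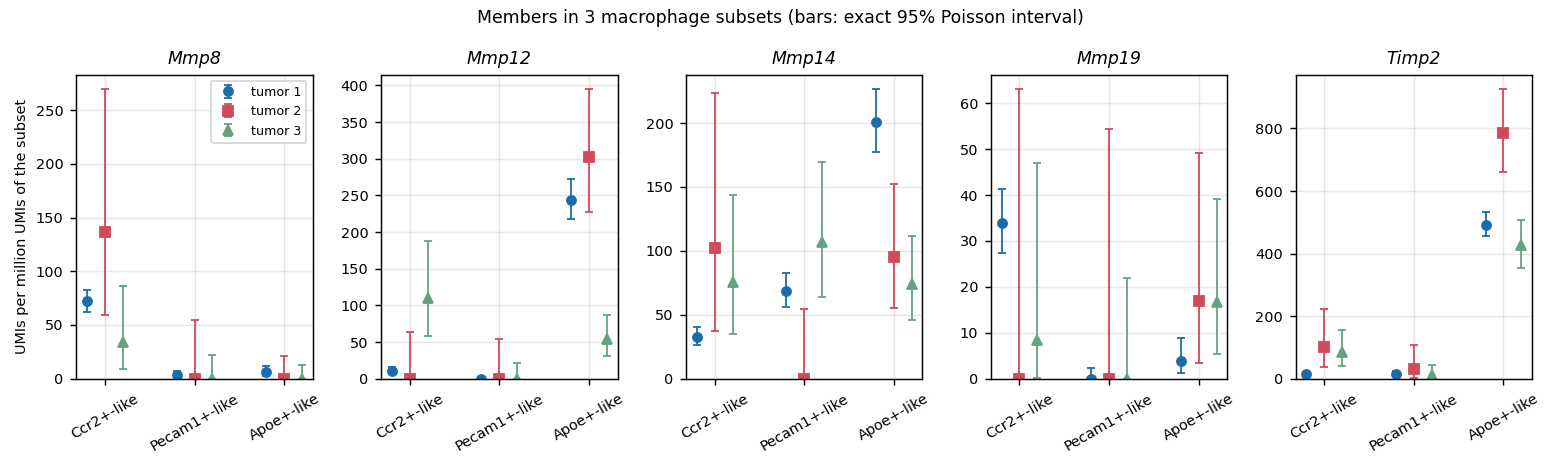
Level of members (CPM, y axis) in the Pecam1+-like, Ccr2+-like and Apoe+-like macrophages of each tumor, with bars for the exact 95% Poisson interval. Mmp8 stands highest in Ccr2+-like cells (33.7 to 137), and Timp2 in Apoe+-like cells (426 to 785).

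Of the other pathway genes tested over the subsets, Apoe+-like cells were called higher for Cd63, a partner of Timp1 (1222 against 57.2 CPM). Cd63 is among the markers that named these cells. In macrophage-like cells as a whole, Lrp1, a receptor that clears proteases (285 against 65.9 CPM), Cst3, the cysteine protease inhibitor cystatin C (2158 against 526 CPM), and Adam17 (133 against 38.0 CPM) were called higher.

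Plasmacytoid dendritic-like cells carried Timp2 as their main member, at 220, 596 and 136 CPM in tumors 1, 2 and 3, from 201, 5 and 8 UMIs, the middle value from only 4 cells. The tumors together gave 27 UMIs of all proteases in these 118 cells, against 214 of Timp2. No member was called by edgeR or DESeq2 (5.14% of all genes called higher and 0.0999% lower by edgeR), with Timp2 at an unadjusted p of 0.0495 (adjusted p = 0.384) as the only member under 0.05. After thinning, 7.63% of them had a UMI of Timp2, against 0.774% of tumor-like cells.

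CAF-like cells carried proteases and inhibitors together. Against the mean of the other classes, 7 members were called higher (Mmp2, Mmp3, Mmp14, Mmp19, Timp1, Timp2 and Timp3) and none lower, with 13.5% of all genes called higher and 0.0726% lower. The fit used tumors 1 and 3, since tumor 2 had only 7 CAF-like cells. Mmp2 (gelatinase A) stood at 301, 157 and 196 CPM in tumors 1, 2 and 3, from 282, 8 and 25 UMIs, against 47.7, 0 and 0 CPM in endothelial-like cells. Mmp3 (stromelysin 1) stood at 36.3, 58.7 and 78.4 CPM, from 34, 3 and 10 UMIs, and outside this class only 2 UMIs were found, both in macrophage-like cells. Mmp3 thus passed the filter on low counts only through CAF-like sums, and its calls add no support beyond these counts. Of its UMIs in CAF-like cells, 93.6% lay in 5 of the 7 cells that held it. Timp1 stood at 733, 744 and 196 CPM, Timp2 at 862, 744 and 345 CPM and Timp3 at 172, 78.3 and 204 CPM.

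Against the summed counts of all other cells, Mmp2 (adjusted p = 0.0241) and Mmp3 (adjusted p = 0.017) were still called, while Mmp14 was at 0.0598 and Timp1, Timp2, Timp3 and Mmp19 were between 0.151 and 0.31 (3.2% of all genes called higher and 0.0908% lower). DESeq2 called the other 6 members but not Mmp3 (adjusted p = 0.812). Against endothelial-like cells, 5 members were called higher (2.89% of all genes) and none lower (1.63%). The log2 differences were 3.61 ± 0.83 (SE) for Mmp2, 4.13 ± 0.95 for Timp1 and 2.89 ± 0.70 for Timp2, at adjusted p of 0.0121, 0.0102 and 0.0137. Mmp3 and Mmp19 were also called, on 0 and 2 UMIs in endothelial-like cells. This count rested on few libraries, since 2, 0 and 0 members were called without tumors 1, 2 and 3, and 1, Timp2, was called by DESeq2 and in the authors' corrected counts.

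The CAF-like cells split into 25 fibroblast-like cells, 32 perivascular-like cells (pericytes and smooth muscle by their markers) and 27 unnamed cells, too few per tumor for a test. Pooled over tumors, Mmp2 stood at 488 CPM (95% Poisson interval 430 to 551) in fibroblast-like and 93.5 (68.7 to 124) in perivascular-like cells. The fibroblast-like cells of tumors 2 and 3 were 2 in each, and most of the pooled counts came from tumor 1. Mmp3 gave 43 UMIs in 6 fibroblast-like cells, 5 of which held 97.7%, and none in perivascular-like cells, where a count of 0 allows up to 7.13 CPM in tumor 1. Mmp14 was higher in perivascular-like cells, at 642 (574 to 716) against 401 (349 to 459) CPM, in tumors 1 and 2 but not in tumor 3 (393 against 761). Timp3, which binds to the matrix, stood at 253 (211 to 300) against 80.7 (58.4 to 109) CPM in the same direction in all 3 tumors. Timp1 and Timp2 stood higher in fibroblast-like cells, at 940 against 479 CPM and at 1214 against 443 CPM, with Timp1 in tumor 3 as the exception (207 against 295).

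The genes of the pro-Mmp2 activation complex were found in the same cells. Among the 25 fibroblast-like cells, 19 held UMIs of all of Mmp2, Mmp14 and Timp2, as did 10 of 32 perivascular-like, 12 of 27 mesothelial-like and 8 of 102 endothelial-like cells. Fibroblast-like cells had many UMIs per cell, which raises the number of genes found, and after thinning 20% of them had a UMI of Mmp2, 20% of Mmp14 and 52% of Timp2. The share of proteases among member UMIs was 34.4%, 28.6% and 44.8% in the CAF-like cells of tumors 1, 2 and 3.

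**Figure D3:**
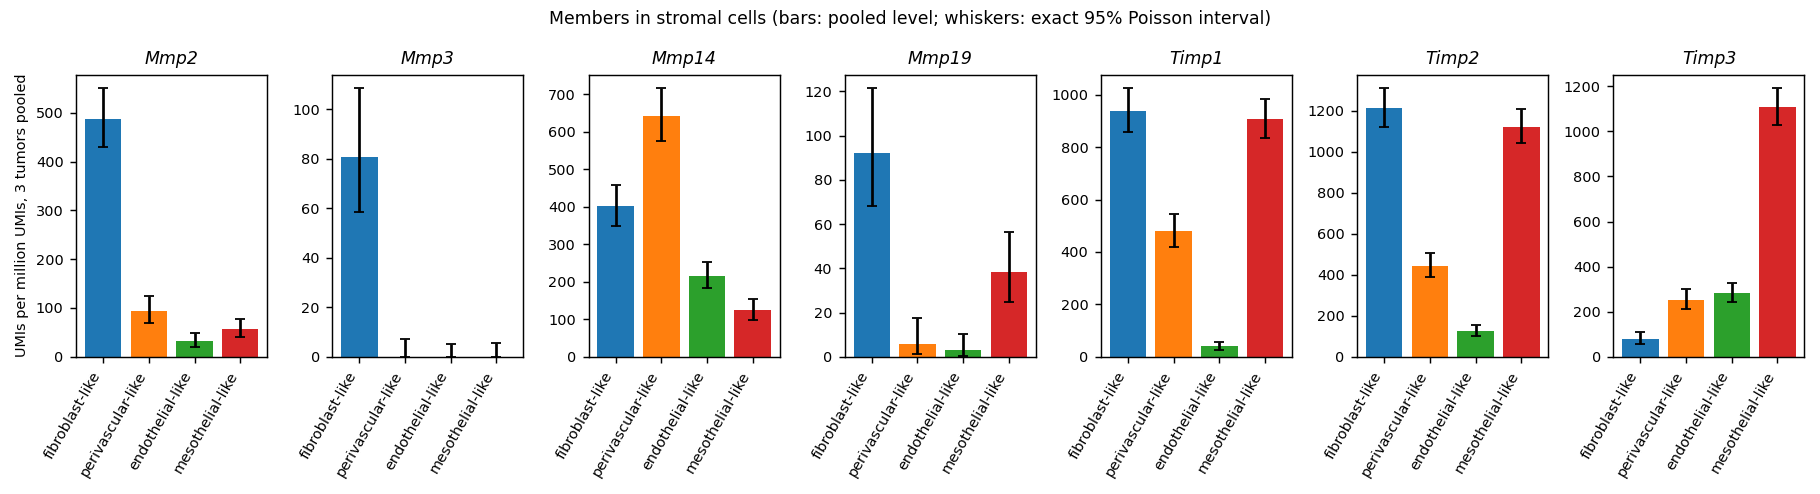
Pooled level of members (CPM, y axis) in the stromal classes and CAF subsets, with whiskers for the exact 95% Poisson interval, which covers counting error only. Mmp2 and Timp1 stand high in fibroblast-like cells (488 and 940), Mmp14 in perivascular-like cells (642) and Timp3 in mesothelial-like cells (1109).

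Other genes of the same lists were called widely in CAF-like cells. All 18 matrix substrate genes tested were called higher, with a median fitted log2 of 7.22 against 0.39 over all genes, among them Fbn1 (1334 against 16.5 CPM) and Col1a1 (8320 against 155 CPM). Col1a1, Col1a2, Col3a1, Col5a1 and Dcn of that list also served to name the class. In the list of Adam and Adamts proteases 12 of 16 were called higher (13.5% of all genes), led by Adamts12 (119 against 0.909 CPM) and Adamts2, which trims procollagen (479 against 15.4 CPM). Among other Mmps 2 of 5 were called, Mmp23 (175 against 22.2 CPM) and Mmp11 (50.6 against 1.60 CPM), and in plasminogen activation 4 of 6, with Serpine2 at 398 against 7.78 CPM. Fitted medians average the logs over classes at or near 0 and depend on the prior count.

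Mesothelial-like cells carried all 3 inhibitors, with Timp3 and Timp2 above the levels of CAF-like cells in each tumor and Timp1 below them in tumor 1, above in tumor 2 and within counting error in tumor 3. Only tumor 1 had 10 or more of them (16, 5 and 6 cells), so the test rests on a single sum that is taken to vary like the others. It called 6 members higher (Mmp2, Mmp14, Mmp19 and all 3 inhibitors) and none lower, with 9.4% of all genes called higher and 0.0363% lower, and DESeq2 called 3. Timp3 stood at 951, 2167 and 1140 CPM in tumors 1, 2 and 3, and in each tumor this was above the level in endothelial-like (208, 554 and 336 CPM) and CAF-like cells (172, 78.3 and 204 CPM). Timp2 stood at 1083, 1474 and 977 CPM. Timp1 stood at 441, 4513 and 163 CPM, and the high value in tumor 2 came from all 5 cells, with 10 to 117 UMIs each and 33.2% of the UMIs in the highest. Both Timp1 and Timp3 were found in 23 of the 27 cells.

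Proteases were a small part of the member UMIs in them, although Mmp2, Mmp14 and Mmp19 were called higher. No UMI of Mmp3, Mmp8, Mmp9 or Mmp12 was found, which allows up to 5.63 CPM in tumor 1, and Mmp14 stood at 101, 192 and 279 CPM. Proteases made up 6.72%, 5.22% and 11.7% of member UMIs. The 12 CAF markers summed to 14036, 24284 and 9983 CPM in these cells, against 41232, 27250 and 16039 in CAF-like cells, and their 10 mesothelial markers to 5923, 5013 and 3025 CPM, against 72.7, 39.2 and 23.5 in CAF-like cells. These cells had a median of 36576.5, 16400 and 7839.5 UMIs, above all other classes, and no caller of doublets was run on them.

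Endothelial-like cells carried Mmp14 and Timp3. Mmp14 stood at 247, 87.4 and 205 CPM (mean 180 ± 82.8, SD, n = 3) and Timp3 at 208, 554 and 336 CPM (mean 366 ± 175, SD, n = 3). These 2 members were called higher against the other classes and none lower, with 10.4% of all genes called higher and 0.109% lower. Against the summed counts of all other cells only Timp3 was called (adjusted p = 0.0459), with 4.39% of all genes higher and 0.202% lower. Mmp2, at 47.7, 0 and 0 CPM, was called with the tumor as a block (adjusted p = 0.0118) and not without it (adjusted p = 0.0664), which moves the count from 2 to 3. The share of proteases was 42.0%, 13% and 34.2%.

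In the lists, endothelial-like cells were called higher for 9 of 16 Adam and Adamts genes (10.4% of all genes), led by Adamts9 (113 against 6.31 CPM), and for 11 of 18 matrix substrate genes, led by the basement membrane genes Col4a2 (2152 against 173 CPM) and Hspg2 (648 against 40.3 CPM). Mmp15, a membrane relative of Mmp14, was called as well (55.4 against 6.86 CPM).

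Tumor-like cells stood low in every member, at 19.9 CPM or less in each tumor. The highest totals among their 3229 cells were 80 UMIs of Timp2, 67 of Timp3 and 36 of Mmp14. No member was called higher, although 27.5% of all genes were, and Timp2 was called lower (1.37% of genes), at 13.2, 7.84 and 15.3 CPM (adjusted p = 0.00182). That call was lost without tumor 1 or tumor 3. Against the summed counts of all other cells 9 members were called lower, all but Mmp3, while 25.9% of all genes were lower and 9.03% higher. Other Mmps were called higher here, Mmp24 (10.6 against 4.16 CPM) and Mmp16 (9.72 against 4.89 CPM), both membrane-type enzymes, and so was the inhibitor family gene Timp4 (5.73 against 2.99 CPM), all at low levels. Timp4 was not particular to tumor-like cells. It was also called higher in endothelial-like cells, at a log2 of 6.32, with 2 of 3 tumors higher. The proteoglycan Spock1 stood at 49.4 against 8.87 CPM in tumor-like cells.

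**Figure D4:**
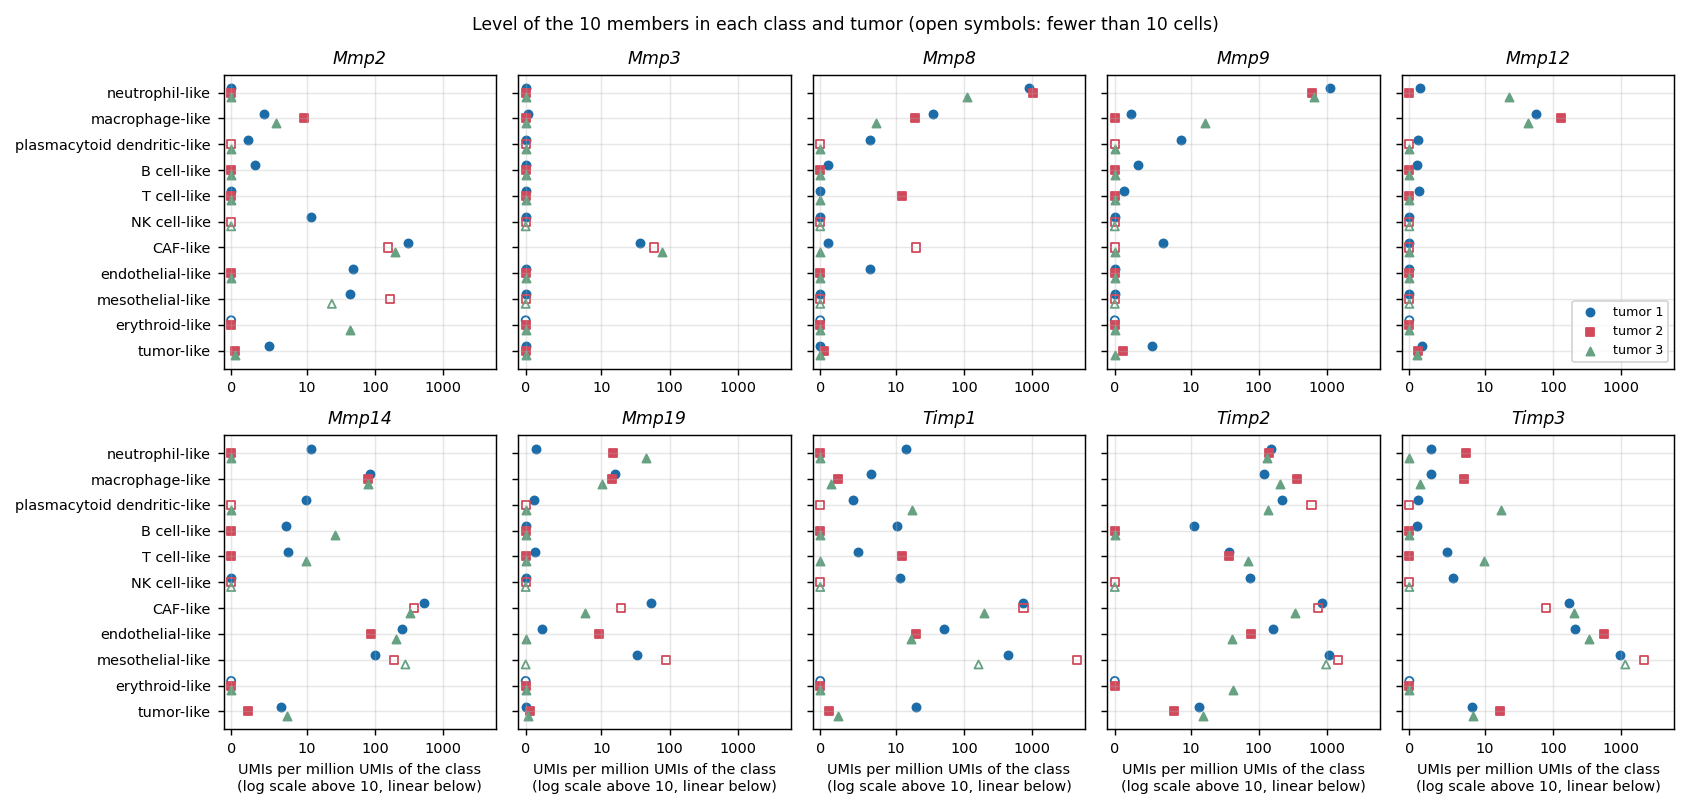
Level of each member (CPM, on an axis that is linear to 10 and logarithmic above) by class, with a symbol for each tumor, open where the class had fewer than 10 cells. Mmp8 and Mmp9 stand at 901 and 1102 in neutrophil-like cells of tumor 1, and Timp1 in the 5 mesothelial-like cells of tumor 2 reaches 4513.

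Set side by side, the classes ran from mostly protease to mostly inhibitor. Pooled over tumors, proteases made up 92.0% of member UMIs in neutrophil-like cells (95% exact binomial interval 90.6 to 93.2), 56.8% in macrophage-like (54.8 to 58.7), 36.2% in endothelial-like (31.9 to 40.7), 34.8% in CAF-like (33.0 to 36.6), 25.1% in tumor-like (19.6 to 31.3), 10.9% in plasmacytoid dendritic-like (7.3 to 15.4) and 6.51% in mesothelial-like cells (5.52 to 7.63). Neutrophil-like cells were above and mesothelial-like cells below the other 5 of these classes in each tumor, except plasmacytoid dendritic-like cells of tumors 2 and 3, which gave 5 and 10 member UMIs and none of a protease. Endothelial-like and CAF-like cells overlapped across tumors, and so did macrophage-like and CAF-like cells. These shares add up genes whose 3′ ends may be captured unequally, and no test was run on them.

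**Figure D5:**
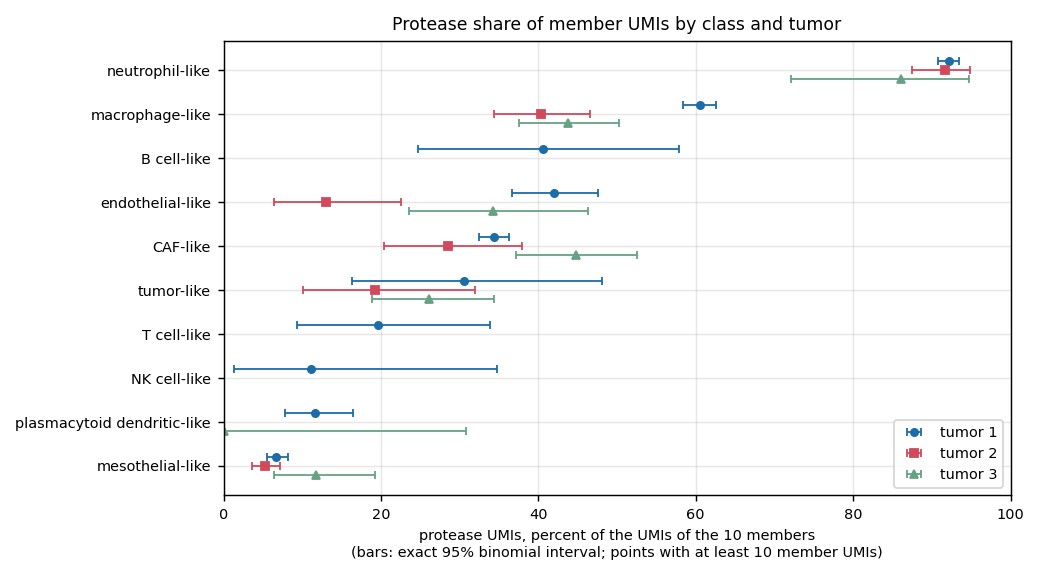
Protease UMIs as a percent of the UMIs of the 10 members (x axis) by class and tumor, for points with at least 10 member UMIs, with bars for the exact 95% binomial interval. Neutrophil-like cells stand at 86.0 to 92.2 and mesothelial-like cells at 5.22 to 11.7.

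Proteases and inhibitors were also counted within the same cell. Of the 313 neutrophil-like cells 171 held proteases only and 77 held both, while of 84 CAF-like cells 63 held both and 8 inhibitors only. Among 1013 macrophage-like cells, 222 held proteases only, 116 inhibitors only and 160 both. In plasmacytoid dendritic-like cells 73 of 118 held inhibitors only.

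The genes most like each member over the 11 class means (Pearson r of log2 CPM, a description over points that share libraries and depth) were as follows. For Mmp8 they were Cd177, Ccr1 and Clec5a (r of 0.99, 0.99 and 0.99), and for Mmp9 they were Alox5, Cldn1 and Wfdc21 (r of 0.99 each), while Mmp8 and Mmp9 had an r of 0.96 with each other. Mmp12 was closest to Gdf3, Atp6v0d2 and Tbxas1 (0.99, 0.98 and 0.97), and Mmp3 to Slc38a11, Angptl1 and Myoc (each 1 when rounded). Mmp2 was closest to Pdgfc, Atp1b2 and Col5a3 (0.95, 0.94 and 0.94), Timp1 to Col5a2, Col3a1 and Ndrg2 (0.99, 0.99 and 0.98) and Mmp14 to Fn1, Cmtm3 and Gm26802 (0.98, 0.97 and 0.97). Timp3 was closest to Bcam, Prrg3 and Hspb1 (0.99 each), Mmp19 to C3, Nupr1 and Hacd4 (0.95, 0.94 and 0.94) and Timp2 to Spsb2, Ifnar2 and Htatip2 (0.94, 0.93 and 0.93).

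The neighbors of Mmp3, Mmp8 and Mmp12 on chromosome 9 were rare. Mmp13 had 31 UMIs in kept cells, 26 of them in macrophage-like cells, Mmp27 had 35, 28 of them in macrophage-like cells, and Mmp10 had 7, all in T cell-like cells. No UMI was found of Mmp1b, Mmp7 or Mmp20. The other members lie at 8:92827291-92853420 (Mmp2), 2:164940780-164955850 (Mmp9), 14:54431612-54445364 (Mmp14), 10:128790910-128800824 (Mmp19), 11:118301069-118355740 (Timp2, reverse strand) and 10:86300372-86349506 (Timp3). Overlapping genes lie on the opposite strand at Mmp12 (Mmp1b), Mmp19 (Gm47093 and Tmem198b), Timp1 (Syn1) and Timp3 (Syn3), and on the same strand at Timp2 (Cep295nl). Whether the counting used strand is not given in the sources used here, and the part of reads from these overlapping genes was not tested.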

How the data were processed

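RNA of single cells of 3 whole TH-MYCN tumors was measured by droplet capture of 3′ ends, after dissociation with Liberase and DNase. The authors deposited raw counts of UMIs per gene and barcode, made with Cell Ranger 3.1.0 on mm10 per the labels. The tables of cells the authors kept were deposited as natural log values of corrected counts with 1 added, left after removal of ambient RNA, doublets and poor barcodes (Seurat 3.1.5). All results use the raw counts of the kept cells, and the corrected counts in 1 alternative. Kept cells of different tumors shared 3, 0 and 1 barcodes. No further doublet caller was run.

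Clustering used Seurat 5.3.0 under R 4.3.3 (2000 variable genes, 30 dimensions, 20 neighbors, resolution 1, tumors integrated), with 91 genes (members and lists) held out. A cluster took a name when at least 3 markers had a fold of 2 and were found in 10% of cells. Macrophage-like and CAF-like cells were clustered again (resolutions 0.5 and 1). Counts were summed per class and tumor for at least 10 cells (26 sums, 11012 genes tested) and per macrophage subset (9 sums, 3322 genes), and compared with edgeR 4.0.16 (TMM, filter on low counts, quasi-likelihood test, Benjamini-Hochberg over all genes, threshold 0.05). The filter could be passed through a single class, and Mmp3, Mmp9 and Mmp12 passed it only through the class in which each stood highest. The reference for a class was the mean log level of the other classes, each weighted equally. Where only 1 tumor gave a sum, its spread is taken from the other classes. Tests were tried on simulated data. Sums that share a tumor share an animal, which pairs them. Deviations from class means correlated at a median of 0.228 (-0.0165 to 0.617, 85 pairs) within a tumor and -0.135 over 170 pairs of different tumors. The main fit has no block, and the blocked fit is an alternative.

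Members and lists were chosen with earlier results of these data known. The text names all members, up to 4 genes per list and comparison with the largest change among those called and changed in the same direction in every tumor (some of these are named without values), and for each member the 3 genes with the highest correlation over class means. Alternatives were clustering settings, a minimum of 20 cells, DESeq2 1.42.0, no filter, the corrected counts, leaving out each tumor and others added after seeing the data.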

Additional observations from a re-analysis of the deposited data

Results flagged for a closer look

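Barcodes outside the kept cells held UMIs of the members as well, and these enter no comparison above. They held 2659 UMIs of Timp1, 3417 of Timp2 and 2736 of Timp3, which is 64.4%, 51.3% and 69.3% of the UMIs of each gene over all barcodes, where all genes stood at 65.2%. They held 610 UMIs of Mmp2 (59.1%), 134 of Mmp3 (73.2%), 308 of Mmp12 (40.7%), 901 of Mmp14 (38.1%) and 126 of Mmp19 (38.5%). The neutrophil genes stood apart, with 30 UMIs of Mmp8 (2.84%) and 27 of Mmp9 (2.80%) outside the kept cells. In tumor 1 alone, the only tumor where kept cells held most UMIs (27.1% removed), 1.36% of Mmp8 and 1.93% of Mmp9 lay outside, against 56.0% of Mmp2, 67.8% of Timp3 and 68.1% of Timp1. Which cells the other barcodes came from was not tested. The shares of each class given above therefore describe the kept cells and not the whole tumor.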

How the results depend on the processing

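The counts of members called moved as follows. In neutrophil-like cells 2 were called higher, 4 at resolution 0.5 and without integration, and 1 against the summed other cells. In macrophage-like cells 5 were called higher, 2 by DESeq2, 3 in the corrected counts and with classes of at least 5 cells, 1 against the summed cells and 3 to 5 when a tumor was left out, and DESeq2 called 1 lower (Timp3). Against the summed cells 2 were called in CAF-like, 1 in endothelial-like and 1 in Apoe+-like cells, and 9 were lower in tumor-like cells, where the main count was 1, that without integration 2, that of DESeq2 5 and that without a tumor 0 to 1. Against the summed cells Mmp8 in macrophage-like cells turned to -1.18 (log2). For neutrophil-like against macrophage-like cells the count of lower members was 2, but 1 at resolution 2, in the corrected counts and with at least 5 cells, 0 by DESeq2 and 0 to 1 without a tumor. For CAF-like against endothelial-like cells it was 5, but 1 by DESeq2 and in the corrected counts, 3 with at least 5 cells and 0 to 2 without a tumor. For Pecam1+-like cells it was 2 lower, but 1 without integration and with at least 20 cells, and 0 to 1 without a tumor. Apoe+-like cells had 2 higher, 4 without integration and 1 to 2 without a tumor. For Ccr2+-like cells the count of 0 became 1 (Mmp8) at resolutions 0.5 and 2, without integration, with lists not held out and with no filter. In the corrected counts the protease share was 54.8% in macrophage-like and 4.35% in mesothelial-like cells. The causes were not tested. Alternatives were run for 30 calls of members, which leaves out 6 in mesothelial-like and 1 in B cell-like cells, and the tumor block ended none of the 30 and added 3. With at least 5 cells no call among those tested was lost, and the lower counts come from members that no longer passed the filter. Members without a test also lowered the counts of DESeq2 and the corrected counts, for Mmp19 in macrophage-like and Mmp3 and Mmp19 in CAF-like against endothelial-like cells. The summed-cell, 5-cell and subcluster settings were chosen after seeing the data. Depth limits rare classes, since tumors 2 and 3 gave few cells and UMIs outside the tumor-like cells.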
